A study of Mus musculus with 4 samples.

Results

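A set of 10 genes listed as marks of border and tissue macrophages was followed in the immune cells of a mouse glioma model at 2 ages. They are Mrc1, Cd163, Retnla, Cbr2, Lyve1, Pf4, Ear2, Folr2, Mgl2 and Clec4b1, which are 10 of the 21861 features counted. They were selected on the measured values themselves, because their levels in myeloid or dendritic cells were lower at P70 than at P43. Their own differences between the ages are therefore given as a description. Those of the 10 genes with enough counts were part of the age tests over all genes, but nothing is read from their results there. The tumors came from 4 mice of the genotype hGFAP-cre::TP53Fl/Fl::lsl-MYCN, of which mice 4 and 5 were taken at P43 (postnatal day 43) and mice 6 and 7 at P70 (day 70). All 4 mice carried the same alleles and a tumor, and no tumor-free mouse was used here, so age and tumor growth cannot be told apart. The hGFAP promoter drives Cre in neural precursor cells and their progeny, which lose Trp53 and switch on MYCN with a luciferase reporter, so the immune cells described here are host cells. Each library is tissue of 1 mouse, enriched for living cells by a viability dye, and sequenced by droplet-based 3′ single-cell RNA sequencing. The paper describes the harvested tissue as olfactory bulb or tumor and calls P43 early tumor onset. How much normal tissue each library held was not measured, so the tissue taken cannot be told apart from age either.

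Border macrophages sit in the meninges, the perivascular spaces and the choroid plexus and take up material from blood and cerebrospinal fluid. They are usually told from microglia, the macrophages inside the brain tissue, by scavenger and lectin receptors such as Mrc1 (CD206), Cd163 and Lyve1. Several of the 10 genes are not limited to them. Retnla and Mgl2 belong to the response of macrophages to interleukin 4, and Mgl2 and Clec4b1 also mark a class of conventional dendritic cells that carries Cd209a.

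Of 11834 barcodes, 10975 cells were kept and 18 clusters were formed. A cluster of 1081 cells, in which all 12 Myeloid markers were raised and C1qb, C1qa and C1qc led, was taken as Myeloid. It held 53, 66, 817 and 145 cells of mice 4, 5, 6 and 7, with medians of 4379, 7665.5, 5364 and 2321 unique molecular identifiers (UMIs, the counted molecules) per cell. Dendritic cells (DC) made up 3 clusters, a Cd209a cluster of 411 cells, a migratory cluster of 222 cells and a plasmacytoid cluster of 71 cells, and numbered 74, 76, 486 and 68 cells in the 4 mice. Mouse 6 contributed most of these cells, with 29.9% of its cells in the Myeloid class against 1.60% to 4.53% in the other 3 mice. The libraries shared few barcodes, since 15 sequences occurred in more than 1 library, 12 of them among kept cells. The sex labels of the P43 mice went against the data. Y-linked genes summed to 224 CPM (UMIs of a gene scaled to a common total, the usual counts-per-million unit) in the non-tumor cells of mouse 4, labelled female, and to 0.644 CPM in those of mouse 5, labelled male, whereas both P70 mice matched their labels (187 and 0 CPM). Both libraries are labelled P43, and the closing section gives the counts without each of them.

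The label of border macrophages was checked against the data first, because some of its genes were found in few of the cells. At P43, 3 of 119 Myeloid cells held Lyve1, a hyaluronan receptor and a defining gene of perivascular and meningeal macrophages. Folr2, a folate receptor of tissue macrophages, was held by 2 cells and Cbr2, a carbonyl reductase, by 5. Together 6 of the 119 cells held Lyve1, Folr2 or Cbr2. Mrc1 was held by 54 of the 119 cells, Pf4 by 19 and Cd163 by 7. These counts alone do not settle how many of the cells the label fits. Lyve1, Folr2, Cbr2, Cd163 and Pf4 supplied 168 of the 1567 UMIs of the 10 genes at P43 (10.7%), and Retnla, Mgl2, Mrc1, Ear2 and Clec4b1 supplied the other 89.3%. The set is therefore called by its genes and not by a cell type.

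Promoter sequences are given for 5 of the genes. Retnla, Mrc1, Mgl2 and Clec4b1 were often held by the same cells, and Pf4 overlapped between the ages in Myeloid cells. Ear2 was often held together with Retnla and Mgl2, and Folr2 overlapped as Pf4 did, but neither is printed. RefSeq (GRCm38.p6) start sites were found for 9 of the 10 genes, not for Lyve1. In the 250 bases before the start, 6 of the 9 genes held GAGGAA on either strand, the core motif of PU.1. PU.1 is the lineage factor of myeloid cells, and 23.3% of 32851 mouse promoters held this motif. The 5 genes printed below are all among these 6, so no sequence without the motif is shown. Cd163, Ear2 and Folr2 held no match. The palindrome bound by STAT6, the factor activated by interleukin 4 (TTCNNNNGAA), was found in Retnla alone and in 5.85% of all promoters. It lay 145 to 136 bases before the RefSeq start of Retnla. The MAF motif TGCTGA was found in Retnla and Folr2 (16.1% of all promoters), TATAAA in Retnla (12.4%), TGANTCA of AP-1 in Folr2 (6.75%) and the E-box CATGTG in Cbr2, Folr2, Mrc1 and Retnla (12.3%). None of these matches overlapped another motif. Capitals mark the PU.1 and STAT6 letters, and bases that GENCODE places inside the gene were left out. A printed sequence can therefore end before the RefSeq start. Of the 250 bases of Retnla 192 are printed, and its TGCTGA and TATAAA matches lie in the part left out.
Retnla (chr16:48842359-48842550, strand +): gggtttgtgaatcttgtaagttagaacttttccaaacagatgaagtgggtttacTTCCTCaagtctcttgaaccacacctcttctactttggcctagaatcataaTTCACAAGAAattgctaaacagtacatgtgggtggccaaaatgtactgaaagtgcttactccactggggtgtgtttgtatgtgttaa
Mrc1 (chr2:14229164-14229391, strand +): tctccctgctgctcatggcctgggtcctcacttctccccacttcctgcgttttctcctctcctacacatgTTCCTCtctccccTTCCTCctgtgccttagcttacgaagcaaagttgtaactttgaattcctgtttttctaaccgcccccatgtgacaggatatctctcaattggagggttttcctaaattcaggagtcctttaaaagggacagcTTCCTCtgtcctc
Mgl2 (chr11:70130107-70130328, strand +): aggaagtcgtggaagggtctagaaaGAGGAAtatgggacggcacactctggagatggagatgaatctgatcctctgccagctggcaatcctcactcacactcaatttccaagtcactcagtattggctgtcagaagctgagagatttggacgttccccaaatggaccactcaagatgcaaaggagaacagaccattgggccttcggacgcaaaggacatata
Clec4b1 (chr6:123049712-123049961, strand +): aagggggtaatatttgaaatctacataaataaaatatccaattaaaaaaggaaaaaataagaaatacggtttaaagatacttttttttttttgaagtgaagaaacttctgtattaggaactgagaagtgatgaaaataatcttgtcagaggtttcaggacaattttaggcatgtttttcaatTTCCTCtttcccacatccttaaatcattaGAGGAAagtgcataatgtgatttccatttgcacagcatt
Pf4 (chr5:90772185-90772434, strand +): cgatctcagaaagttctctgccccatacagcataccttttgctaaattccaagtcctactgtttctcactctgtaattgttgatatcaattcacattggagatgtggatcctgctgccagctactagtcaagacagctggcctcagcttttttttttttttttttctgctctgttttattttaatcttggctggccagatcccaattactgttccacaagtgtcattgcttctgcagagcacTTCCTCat
A match of letters is a description of the sequence, and binding was not measured.

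In Myeloid cells the 10 genes together were 16.9-fold lower at P70. Their summed level was 2156 and 2155 CPM in the P43 mice but 72.9 and 182 CPM in the P70 mice. The log2 ratio of the means was -4.08. The sums of the P43 mice were close (95% Poisson intervals of 1961 to 2365 CPM and 2031 to 2286 CPM), but their parts were not all alike. Mgl2 (110 and 542 CPM) and Lyve1 (134 and 13.5 CPM) were far apart in mice 4 and 5, whereas Mrc1 (359 and 345 CPM) was not. The intervals take UMIs as independent, although 1 cell gave 163 of 450 UMIs in mouse 4 and 253 of 1117 in mouse 5. Of the 10 genes, 8 were lower in both P70 mice than in both P43 mice. Among all 8817 genes with a mean of at least 5 CPM, 24.5% were ordered in this way, a background that is given without a comparison because the genes were chosen for this order. In these bulk sums, fewer cells that hold a gene and fewer molecules per cell cannot be told apart, so cells and molecules per cell are also given separately. The Myeloid class need not hold the same kinds of cells at both ages. Of its 116 and 962 cells without Lyve1 at P43 and P70, 33.6% and 63.3% held the monocyte gene Ly6c2. The level of Ly6c2 overlapped between the ages (776, 365, 1900 and 423 CPM in mice 4 to 7). A shift of cell kinds within the class was not tested.

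**Figure D1:**
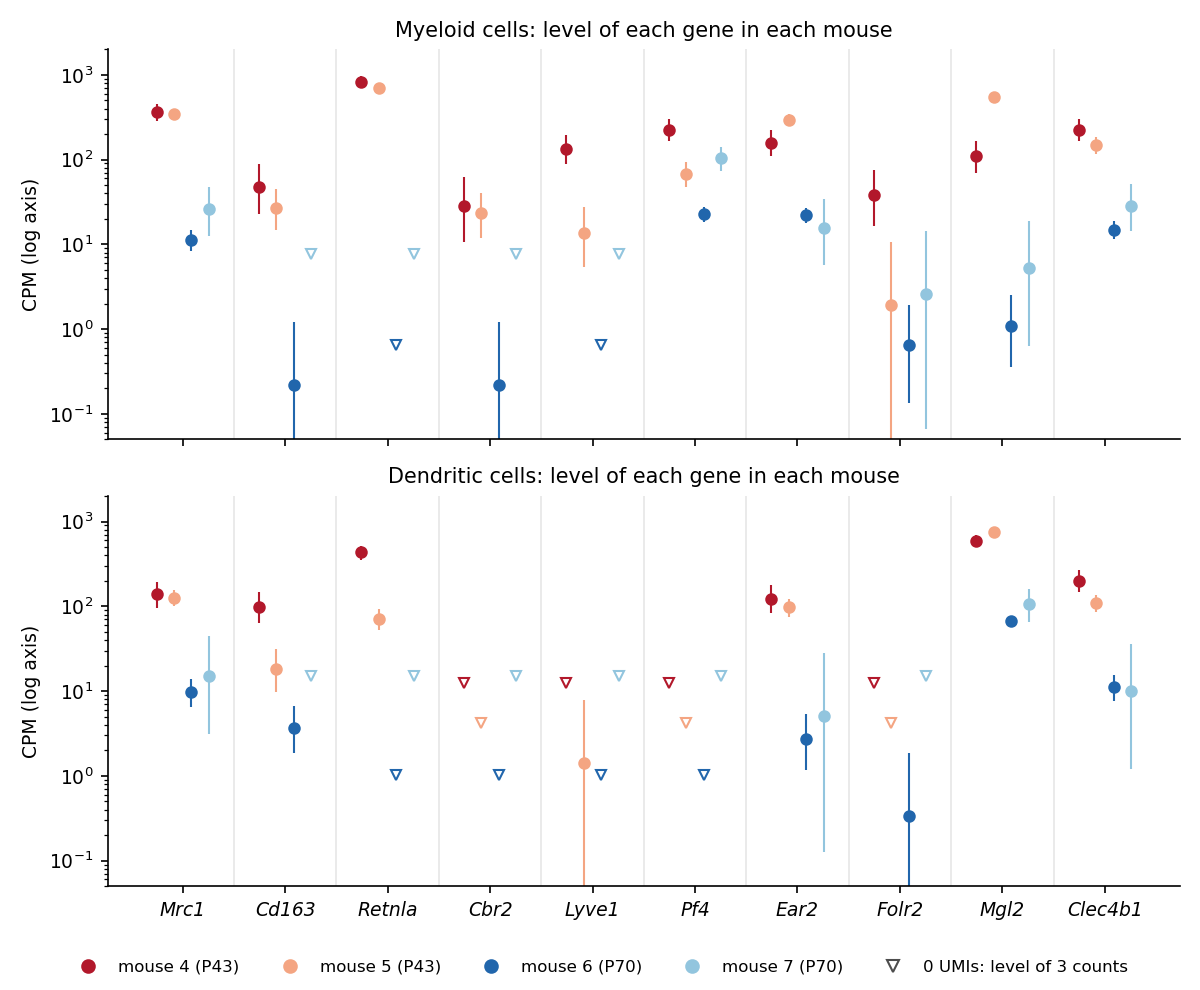
Level of each of the 10 genes in Myeloid cells (upper panel) and dendritic cells (lower panel) as CPM on a log axis, 1 point per mouse with a 95% Poisson interval that covers counting error only, and open triangles at the level of 3 counts where no UMI was found. In Myeloid cells, 8 genes lie lower in both P70 mice, and Pf4 and Folr2 overlap between the ages.

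Retnla, which encodes the secreted resistin-like molecule alpha (FIZZ1), had the highest level at P43 and was not found at P70. Its level was 829 and 697 CPM in mice 4 and 5, and 0 UMIs were counted among the 817 Myeloid cells of mouse 6 and the 145 of mouse 7. At these depths a count of 0 allows up to 0.658 and 7.78 CPM. The mean P43 level of Retnla was at least 1257-fold above 3 counts pooled over both P70 mice. Mouse 6 gave most of the pooled UMIs, so this fold is no bound for mouse 7 alone. The P43 level came from few cells, 4 of 53 in mouse 4 and 6 of 66 in mouse 5. A single cell supplied 127 of the 173 UMIs in mouse 4 and 189 of the 361 in mouse 5.

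The receptors showed a like difference. Mrc1, the mannose receptor, stood at 359 and 345 CPM in the P43 mice, with values of 11.2 and 25.9 CPM in the P70 mice, a 19.0-fold ratio of the means. Unlike Retnla it was spread over many cells, 18 of 53 and 36 of 66 at P43. Mgl2, a galactose-type lectin (CD301b), was at 110, 542, 1.10 and 5.19 CPM in mice 4 to 7. Its P43 mice were far apart, yet both lay above the P70 mice, and the means differed 104-fold. Clec4b1, a C-type lectin receptor, was at 225 CPM and 147 CPM at P43 and at 14.9 CPM and 28.5 CPM at P70, the smallest fold (8.56) among the genes that did not overlap. Cd163, the receptor for hemoglobin bound to haptoglobin, had 10 and 14 UMIs at P43 (47.9 CPM and 27.0 CPM) and 1 and 0 at P70. With so few counts its pooled ratio was 163 with a counting interval from 26.6 to 6710. Its P43 UMIs came from 3 cells in mouse 4 and 4 cells in mouse 5.

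Ear2, an eosinophil-type ribonuclease also found in monocytes, was at 158, 291, 21.9 and 15.6 CPM in mice 4 to 7 (12-fold). It has near-identical copies in the mouse genome, and how reads shared between them were counted was not checked. Ear1, Ear6, Ear10 and Ear14 had 0 UMIs in the Myeloid cells of every mouse. These zeros do not show whether reads of Ear2 were lost. Cbr2 was at 28.7 CPM and 23.2 CPM at P43, from 6 and 12 UMIs, and had 1 UMI at P70. Its pooled ratio was 122 with a counting interval from 19.3 to 5099. Lyve1 had 134 and 13.5 CPM in the P43 mice and 0 UMIs at P70. Its mean P43 level was at least 122-fold above 3 counts pooled over both P70 mice, most of whose UMIs are of mouse 6. This fold is no bound between single mice, since 0 UMIs in mouse 7 allow up to 7.78 CPM, against 13.5 CPM in mouse 5. A single cell of mouse 4 gave 25 of the 28 Lyve1 UMIs there, and the 7 UMIs of mouse 5 came from 1 cell.

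Pf4 and Folr2 did not separate the ages. Pf4, a chemokine (CXCL4) that brain border macrophages share with platelets, was at 225 and 67.5 CPM at P43 and at 22.6 and 104 CPM at P70. Mouse 7 therefore lay above mouse 5, and their counting intervals (47.0 to 93.9 CPM in mouse 5, 74.1 to 141 CPM in mouse 7) overlapped. At P70, 41 Myeloid cells still held Pf4, all 41 of them with C1qa. Folr2 was at 38.3 CPM in the first P43 mouse, all 8 UMIs from 1 cell, and at 1.93 CPM, 0.658 CPM and 2.59 CPM in mice 5, 6 and 7, from 1, 3 and 1 UMIs.

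Dendritic cells held a part of the same set. Their summed level was 1579 and 1180 CPM at P43 and 95.1 and 136 CPM at P70, an 11.9-fold ratio of the means (log2 -3.58). A subset of 6, Mrc1, Cd163, Retnla, Ear2, Mgl2 and Clec4b1, were lower in both P70 mice. Among 8987 genes with a mean of at least 5 CPM, 20.3% were ordered in this way. Cbr2 and Pf4 had 0 UMIs in the dendritic cells of all 4 mice, and Lyve1 and Folr2 had 1 UMI each, so no difference was detectable for these 4 genes at this depth.

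Mgl2 was the gene with the highest level in dendritic cells, at 587 CPM and 757 CPM at P43 and 67.5 CPM and 106 CPM at P70 (7.76-fold). It remained detectable in 62 of 554 dendritic cells at P70, more than any other of the 10 genes. Mrc1 was at 139 CPM and 126 CPM at P43 and at 9.78 CPM and 15.1 CPM at P70. Clec4b1 was at 201 CPM and 110 CPM, and then at 11.1 CPM and 10.1 CPM. Ear2 was at 123 CPM and 96.9 CPM, and then at 2.70 CPM and 5.03 CPM. For each of these genes both P43 mice lay above both P70 mice.

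Retnla and Cd163 were uneven in dendritic cells. The 105 Retnla UMIs of mouse 4 (431 CPM) came from 1 cell, and the 50 UMIs of mouse 5 (70.2 CPM) from 2 cells, with 0 UMIs among the 554 dendritic cells at P70. For Cd163, 1 cell held 23 of the 24 UMIs of mouse 4 (98.5 CPM), whereas mouse 5 (18.3 CPM) had 13 UMIs in 8 cells and mouse 6 (3.71 CPM) had 11 UMIs in 10 cells. Left without the cell with the most UMIs of the 10 genes in each mouse, the summed level in dendritic cells was 1021, 1038, 86.3 and 107 CPM in mice 4 to 7, and that in Myeloid cells was 1438, 1709, 62.1 and 157 CPM.

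Within the dendritic cells the Cd209a cluster supplied nearly all of these UMIs. Its summed level was 2360, 1394, 136 and 184 CPM in mice 4 to 7. The migratory cluster had 12 UMIs of the 10 genes in mouse 5 and 3 in mouse 6, and the plasmacytoid cluster had 21 in mouse 6, of which 17 were Mgl2. The markers of migratory cells summed to 554 and 1069 CPM in the dendritic cells of the P43 mice and to 2626 and 1786 CPM at P70, with all 8 of them found in every mouse. The number of migratory cells did not follow age in the same way, at 37 of 74, 9 of 76, 160 of 486 and 16 of 68 dendritic cells in mice 4 to 7. Oligodendrocyte-lineage markers (882, 91.3, 82.6 and 800 CPM) and neutrophil markers (0, 2796, 131 and 5.03 CPM) varied between mice without following age. Within the Cd209a cluster alone the log2 ratio was -3.55 and 6 genes were lower in both P70 mice, as over all dendritic cells. The cluster need not hold the same kinds of cells at both ages. Over all dendritic cells, Cd209a was found in 80.4% of the Mgl2-positive cells at P43 and in 32.3% at P70. In cells without Mgl2 these shares were 22.2% and 15.2%. A shift of subtypes within the cluster was not tested. Mgl2 is among the 10 leading genes of the Cd209a cluster, and its level was therefore one of the values that formed that cluster.

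The number of cells that hold the genes was compared at equal depth, after thinning every cell to 2000 UMIs and leaving out shallower cells (18, 3, 50 and 56 Myeloid cells in mice 4 to 7). At least 2 of the 10 genes were then found in 11 of 35 Myeloid cells of mouse 4 (31.4%, 95% exact interval 16.9% to 49.3%) and in 18 of 63 of mouse 5 (28.6%, 17.9% to 41.3%). At P70 these were 7 of 767 cells of mouse 6 (0.913%, 0.368% to 1.87%) and 4 of 89 of mouse 7 (4.49%, 1.24% to 11.1%). The mean share was 27.3 percentage points lower at P70, a description of the values the genes were chosen on, and the intervals cover the counting of cells within a mouse only. At least 3 of the genes were found in 6 and 13 cells at P43 and in no cell at P70, which allows up to 0.391% in mouse 6 and 3.37% in mouse 7. Without thinning, at least 2 of the genes were found in 32.1% and 47.0% of the Myeloid cells at P43 and in 3.55% and 3.45% at P70, and the largest number of the genes in 1 cell was 9 at P43 and 3 at P70.

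Endothelial cells were taken as a background, on the assumption, which was not tested, that they lack these genes. They held at least 1 of them at 2000 UMIs in 0 of 199, 3 of 397, 4 of 147 and 0 of 11 cells of mice 4 to 7. Their median depths were 3397, 4173, 5278 and 4422 UMIs. In mouse 6, Lyve1 was found in 1 of these cells, Pf4 in 2 and Mgl2 in 1. The shares of 0.756% in mouse 5 and 2.72% in mouse 6 compare with 57.1% and 8.60% of the Myeloid cells of the same mice, at 8584 and 5504 UMIs. In dendritic cells the share with at least 2 of the genes was 35.7% and 27.1% at P43 and 0.871% and 4% at P70.

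The few cells positive for Mrc1 at P70 also held fewer of its molecules on average. At 2000 UMIs, Mrc1-positive Myeloid cells had a mean of 2.11 and 2.59 Mrc1 UMIs in the P43 mice and of 1 and 1.20 in the P70 mice. These means rest on 9, 22, 12 and 5 cells of mice 4 to 7, and 1 cell of mouse 5 held 21 UMIs. A positive cell has at least 1 UMI, so the mean cannot fall below 1. Retnla-positive cells had means of 12.3 and 15.4 UMIs at P43, with no such cell at P70. Pf4-positive cells had 3.29, 3, 2.33 and 2.29 UMIs of Pf4 in mice 4 to 7.

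**Figure D2:**
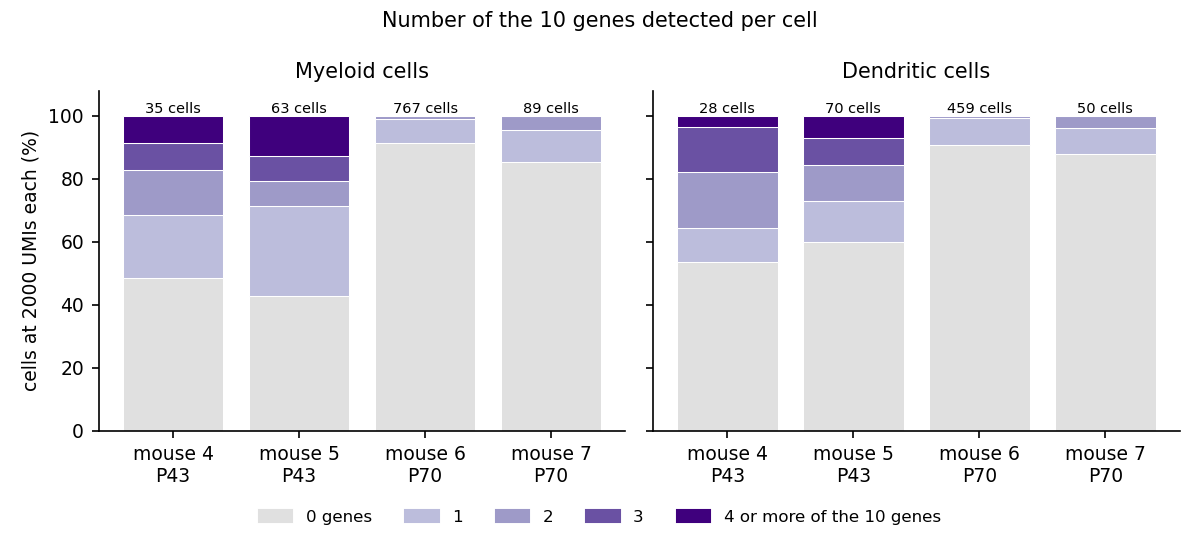
Share of Myeloid cells (left) and dendritic cells (right) of each mouse by the number of the 10 genes with a UMI after thinning each cell to 2000 UMIs, with the number of cells above each bar. Cells with 3 or more of the genes are found in the P43 mice (6 of 35 and 13 of 63 Myeloid cells) and in neither P70 mouse.

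Some cells of the P43 Myeloid class held many of the genes at once. In mouse 4, 1 cell held 9 of the 10 genes, with 25 Lyve1, 8 Folr2, 12 Pf4, 8 Cd163 and 4 Cbr2 UMIs among its 7142 UMIs and no Ear2. It also held 15 Retnla, 10 Mrc1, 3 Mgl2 and 4 Clec4b1 UMIs. A cell of mouse 5 held 7 of them, with 7 Lyve1, 1 Folr2, 12 Pf4, 7 Cd163 and 4 Cbr2 UMIs among 3034 UMIs, and neither Ear2 nor Retnla. These were the only cells in which at least 3 of Lyve1, Folr2, Cbr2, Cd163 and Pf4 met, and both P43 mice had 1 such cell.

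Retnla, Mgl2, Clec4b1, Mrc1 and Ear2 were often found together. All 10 Retnla-positive Myeloid cells of the P43 mice also held Mrc1, Mgl2 and Clec4b1, and 8 of them held Ear2, whereas 1 held Lyve1. Of the 109 Myeloid cells without Retnla, 40.4% held Mrc1, 22.0% Mgl2, 28.4% Clec4b1 and 17.4% Ear2. The Retnla-positive cells were deeper, with a median of 9035.5 UMIs against 5466 UMIs, which raises the chance to find any second gene. Of the 54 Mrc1-positive cells, 31 held Mgl2 and 32 held Clec4b1, and 3 held Lyve1. Of the 19 Pf4-positive cells, 18 held Mrc1, 13 Clec4b1, 11 Mgl2 and 2 Ear2, against 36%, 28%, 23% and 25% of the cells without Pf4.

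**Figure D3:**
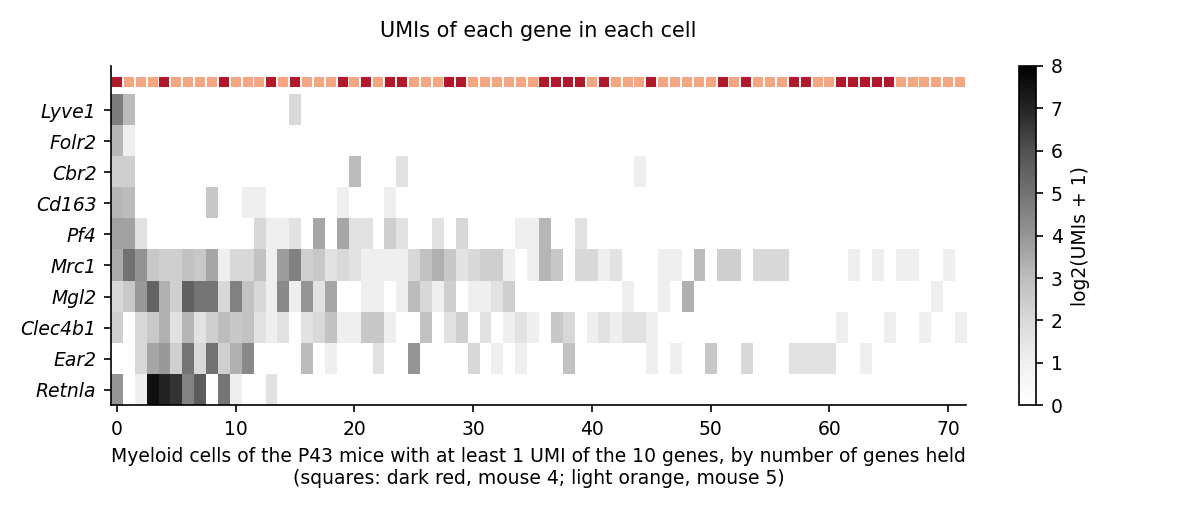
UMIs of each of the 10 genes, as log2(UMIs + 1), in the 72 Myeloid cells of the P43 mice that held at least 1 of them, sorted by the number of genes held and coloured by mouse. The first 2 cells, 1 from each mouse, hold Lyve1, Folr2, Cbr2, Cd163 and Pf4 together, and the next cells hold Retnla, Mgl2, Clec4b1, Mrc1 and Ear2.

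Most of these cells also carried Ccr2, the chemokine receptor that brings monocytes into tissue, as did most P43 Myeloid cells without each gene. At P43, Ccr2 was found in 10 of 10 Retnla-positive, 31 of 34 Mgl2-positive, 36 of 41 Clec4b1-positive and 46 of 54 Mrc1-positive Myeloid cells, and in 61.5% of the cells without Mrc1. Cells without Retnla, Mgl2 or Clec4b1 held it in 69.7%, 64.7% and 64.1%. C1qa was found in 79.6% of the Mrc1-positive Myeloid cells at P43 and in 26.2% of those without Mrc1. For the microglia gene P2ry12 these shares were 22.2% and 7.69%, and for Cd209a 22.2% and 1.54%. With Mgl2, C1qa and Cd209a were in 79.4% and 23.5% of the cells, against 38.8% and 5.88% without it. Ear2-positive cells did not stand apart in C1qa (51.9% against 50%). The Mrc1-positive Myeloid cells were deeper (median 7310.5 against 4808 UMIs). Ccr2 was found in 1 of the 3 Lyve1-positive cells. The monocyte gene Ly6c2 was found in none of the Retnla-positive and in 8 of the Mrc1-positive cells at P43. It was found in 47.7% of the P43 cells without Mrc1. At P70 it was found in 22 of the 41 Mrc1-positive Myeloid cells and in 63.7% of those without. Ear2-positive cells did not stand apart in Ccr2 at P43, with 70.4% against 72.8% of the cells without Ear2. In dendritic cells of the P43 mice, 30 of 31 Mrc1-positive cells held Mgl2 and 28 held Ccr2. Of those without Mrc1, 43.7% held Ccr2, and the Mrc1-positive cells were deeper (median 8429 against 5534 UMIs).

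Which other genes are found in the Myeloid cells that hold the set was tested within mice. Cells with at least 2 of the 10 genes were compared with cells that had none, in sums per mouse with the mouse as a block. Cells were assigned after thinning to 2000 UMIs, but the sums took all UMIs of each cell. Some cells assigned to none therefore held the genes before thinning. In mouse 5, at least 1 gene was found in 46 of 66 cells without thinning and in 36 of 63 after it. Mouse 4 gave 11 against 17 cells, mouse 5 gave 18 against 27 and mouse 6 gave 7 against 701, and mouse 7 was left out with 4 positive cells. The positive cells were deeper, with medians of 6009, 9076 and 5620 UMIs against 5292, 7370 and 5478 UMIs. Of 2489 other genes, 10 (0.402%) were higher and 35 (1.41%) were lower in the positive cells (edgeR quasi-likelihood test, Benjamini-Hochberg adjusted p under 0.05).

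Among the 10 higher genes, 1 belongs to the 6 tested other border macrophage genes, of which 1 more, Clec4n (-2.43 ± 0.64), was lower, and 1 to the 6 tested microglia genes. Dab2, an endocytic adaptor and the border macrophage gene that rose, was at 374, 361 and 147 CPM in the positive cells of mice 4, 5 and 6 and at 10.4, 42.2 and 59 CPM in the cells without (log2 2.66 ± 0.47, SE, adjusted p = 0.000928, edgeR). Dok2, an adaptor of immune receptor signaling, rose by log2 3.62 ± 0.64. Ccr2 rose by log2 1.03 ± 0.25 and was higher in all 3 mice, with 1380, 1480 and 735 CPM against 543, 769 and 426 CPM. Fcrls, the microglia gene, rose by 1.73 ± 0.42, Pid1 by 1.72 ± 0.30, Alcam by 1.88 ± 0.41, Olfm1 by 2 ± 0.51, Ccl6 by 1.33 ± 0.31 and Trf, which encodes transferrin, by 1.16 ± 0.31. Ccl12, a monocyte chemokine, rose by 3.02 ± 0.65 over the 3 mice, but in mouse 6 it had 0 UMIs in the positive cells and 50.5 CPM in the others. Without mouse 4, no gene was higher in the positive cells and 12 were lower.

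The 5 largest falls in the positive cells were those of Cxcl9, Chil3, S100a8, Ly6i and S100a9. The interferon-induced chemokine gene Cxcl9 was at 0 CPM in the positive cells of all 3 mice and at 1860, 42.2 and 330 CPM in the cells without. S100a8 was at 0 CPM against 157, 206 and 387 CPM, S100a9 at 0, 6.45 and 0 CPM against 303, 445 and 471 CPM, and Ly6i at 0 CPM against 491, 70.3 and 405 CPM. Chil3, which encodes Ym1 and is a gene of the interleukin 4 response as Retnla is, was also at 0 CPM in the positive cells and at 10.4, 305 and 273 CPM in the others. The 10.4 CPM of mouse 4 rested on 1 UMI, too few to show a difference in that mouse. The positive cells of mouse 6 were few, so that a 0 there rests on 7 cells. Of the 10 tested monocyte genes 5 were lower and 1, Ccr2, was higher (median log2 -2.03 against -0.01 over all genes). Vcan (-4.47 ± 1.02), Ly6c2 (-3.82 ± 0.45), Plac8 (-2.84 ± 0.40) and Fn1 (-2.68 ± 0.41) had the largest falls among those 5. None of 10 tested genes of lipid-associated macrophages passed the test (median log2 -0.18).

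**Figure D4:**
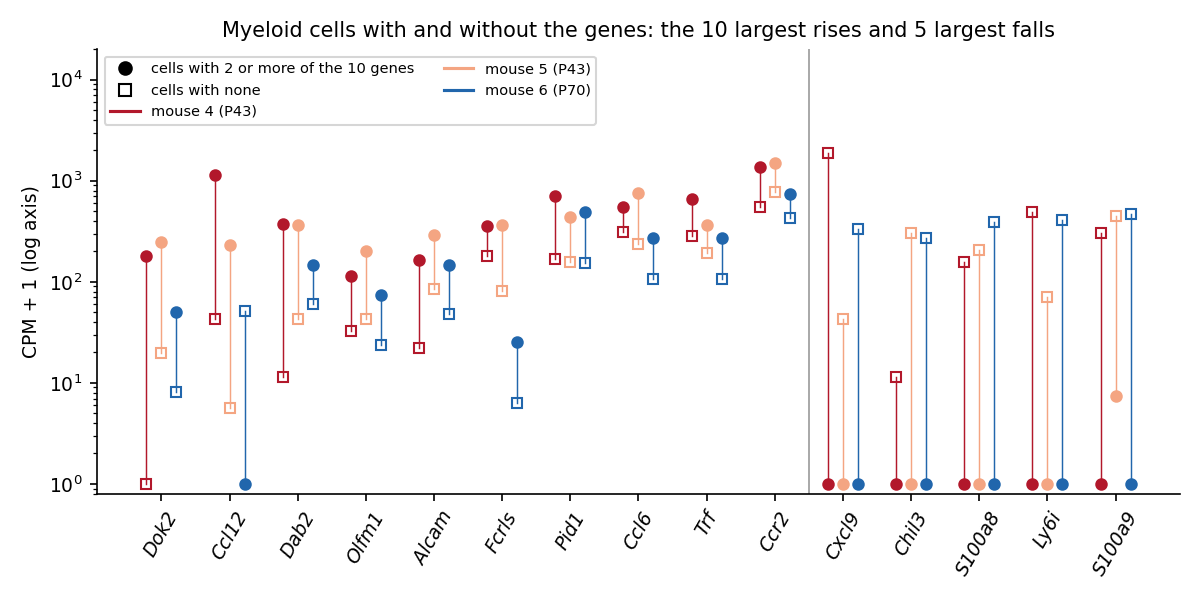
CPM + 1 on a log axis of the 10 genes with the largest rise (left of the line) and the 5 with the largest fall (right) between Myeloid cells with at least 2 of the 10 genes (filled circles) and cells with none (open squares), with 1 line per mouse. Dab2, Ccr2 and Pid1 are higher in the positive cells of all 3 mice, whereas Ccl12 is not in mouse 6.

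Whether other genes of the same programs changed with age was tested in sums per mouse over all genes (edgeR quasi-likelihood test, 2 mice against 2). In Myeloid cells, 5549 genes were tested and 9 (0.162%) were lower and 9 (0.162%) higher at P70. Among the 9 lower genes, 7 were of the 10 chosen ones, of which 8 passed the filter on low counts (not Lyve1 and Folr2). Since they were chosen on this contrast, nothing is read from that count. The other 2 lower genes, named after their values were seen, were the receptor tyrosine kinase gene Fgfr1 (28.7 and 46.3 CPM at P43, 0.219 and 0 CPM at P70) and Eps8 (129 and 179 CPM, then 23 and 20.8 CPM).

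Of 25 other genes of border macrophages, 11 had enough counts. None of the 11 was lower at P70 by the edgeR test and 1 was higher. Their median log2 change was -0.62 against 0.02 over all genes, with 8 of 11 negative against 47.6% of all genes, and 5 had an unadjusted p under 0.05, of which 4 were lower. By DESeq2, 2 were lower. The higher gene was Ms4a7, a membrane gene of macrophages, at 47.9 and 112 CPM at P43 and 613 and 677 CPM at P70 (log2 3.01 ± 0.39, adjusted p = 0.034, edgeR). No gene of this list was called higher without integration or without mouse 4. The following did not pass by edgeR and were named after their values were seen. These are Clec10a, the paralog of Mgl2 (24 and 52.1 CPM, then 7.46 and 5.19 CPM, edgeR adjusted p = 0.106), Hpgd, a prostaglandin-degrading enzyme (316 and 222 CPM, then 36 and 83 CPM, adjusted p = 0.109), and F13a1, coagulation factor XIII (465 and 228 CPM, then 115 and 41.5 CPM, adjusted p = 0.187).

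Of the genes of lipid-associated macrophages, 2 of 12 rose in Myeloid cells and none fell (median log2 1.20). The calls of the rises given here were lost in a fit without mouse 4, which leaves 1 mouse at P43. For each gene with such a call, the level in mouse 5 alone also lay below both P70 mice. Gpnmb, a glycoprotein of lipid-laden macrophages, was at 4.79 and 1.93 CPM at P43 and 155 and 148 CPM at P70 (adjusted p = 0.0108, edgeR), and Ctsb, a lysosomal protease, rose from 776 and 934 CPM to 2330 and 2740 CPM. One of 7 heme and iron genes, the ferritin gene Fth1, rose from 6370 and 7640 CPM to 19500 and 17000 CPM, while Hmox1, whose product acts downstream of Cd163, was at 57.5 and 73.3 CPM and then at 84.5 and 67.5 CPM. One of 10 monocyte genes, Thbs1, rose from 33.5 and 34.7 CPM to 633 and 719 CPM.

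None of the 8 tested genes of the interleukin 4 response passed (3 at an unadjusted p under 0.05, median log2 -0.10). Klf4, a transcription factor of that response, was at 834 and 617 CPM at P43 and at 229 and 291 CPM at P70 (adjusted p = 0.101, edgeR). Chil3 was at 67.1 and 255 CPM and then at 267 and 239 CPM, with overlapping ages, and Tgm2 at 71.9 and 32.8 CPM and then at 259 and 127 CPM (adjusted p = 0.148, edgeR). Stat6 and the receptor gene Il4ra, which carry the interleukin 4 signal, had log2 changes of -0.20 ± 0.33 and 0.01 ± 0.32. None of 7 microglia genes passed. Cx3cr1 was at 723, 405, 342 and 418 CPM and Fcrls at 211, 166, 6.14 and 153 CPM in mice 4 to 7. None of 5 tested Cd209a dendritic cell genes passed in Myeloid cells, with H2-Ab1, Ccr2 and Sirpa at log2 -0.03, -1.23 and -0.19.

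In dendritic cells, 5601 genes were tested, of which 31 (0.553%) were lower and 40 (0.714%) higher at P70. The 5 chosen genes that passed the filter (Mrc1, Retnla, Ear2, Mgl2 and Clec4b1) were among the 31, and nothing is read from that count. Of 9 tested genes of the Cd209a dendritic cells 2 fell. Cd209a, a C-type lectin, went from 644 and 628 CPM to 83 and 186 CPM (log2 -2.38 ± 0.38, adjusted p = 0.0222, edgeR), and Ccr2 from 488 and 496 CPM to 183 and 111 CPM (log2 -1.70 ± 0.30, adjusted p = 0.0307, edgeR). The other 7 did not pass, with H2-Ab1 at log2 -0.11 ± 0.17 and Flt3 at 0.28 ± 0.33. One of 4 tested microglia genes fell, Fcrls, which had 65.6 and 44.9 CPM at P43 and 0 UMIs at P70.

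None of the 5 tested border macrophage genes outside the 10 passed in dendritic cells by edgeR or DESeq2 (4 at an unadjusted p under 0.05). Their median log2 change was -1.22 against -0.01 over all genes, with 4 of 5 negative against 50.8% of all genes. Hpgd was at 94.4 and 77.2 CPM at P43 and at 12.8 and 45.3 CPM at P70 (adjusted p = 0.0838, edgeR). Cd209d had a log2 change of -1.22 ± 0.4 (adjusted p = 0.212, edgeR). Clec10a was at 410 and 122 CPM and then at 116 and 75.5 CPM, Timd4 at 107 and 33.7 CPM and then at 291 and 90.5 CPM, and Dab2 had a log2 change of -0.04 ± 0.31. None of 8 interleukin 4 response genes passed. Klf4 was at 394, 478, 162 and 412 CPM in mice 4 to 7. The chemokine gene Ccl17 was at 65.6 and 728 CPM at P43 and at 39.8 and 20.1 CPM at P70 (adjusted p = 0.0819, edgeR), and Ccl22 was at 53.3, 465, 116 and 60.4 CPM in mice 4 to 7, both with high values in mouse 5. None of the 5 heme and iron genes (Fth1 log2 0.51 ± 0.21, Ftl1 -0.08 ± 0.21, Nfe2l2 0.69 ± 0.29), of the 7 genes of lipid-associated macrophages (Fabp5 1.07 ± 0.54, Lgals3 -0.10 ± 0.25, Ctsb 0.13 ± 0.35) or of the 4 cell cycle genes (Top2a -0.74 ± 0.59, Mki67 -0.62 ± 0.41, Tpx2 1.21 ± 0.72) passed.

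**Figure D5:**
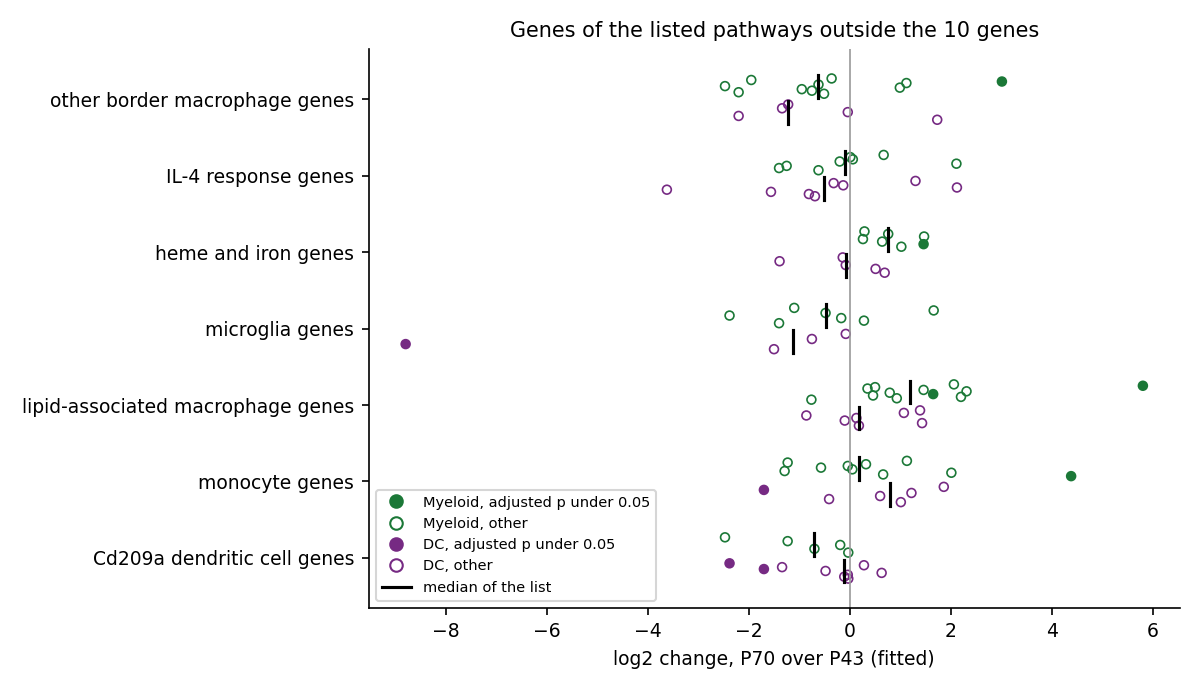
Fitted log2 change from P43 to P70 of the tested genes of 7 lists in Myeloid cells (green) and dendritic cells (violet), with filled points at an adjusted p under 0.05 (edgeR) and black bars at the median of each list. Ms4a7, Gpnmb and Thbs1 lie far to the right in Myeloid cells. The point at the far left is Fcrls in dendritic cells, which had 0 UMIs at P70, so that its position depends on the prior count of the fit.

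RNA of meningeal fibroblasts and choroid plexus was near 0 in the 2 classes. No meningeal fibroblast gene and no choroid plexus gene passed the filter in either class. The 9 fibroblast markers summed to 0, 5.79, 8.78 and 0 CPM in the Myeloid cells of mice 4 to 7, with all 9 at 0 UMIs in mice 4 and 7, and the 6 choroid plexus markers to at most 1.97 CPM. Neutrophil markers summed to 225, 284, 1049 and 13 CPM in Myeloid cells and did not follow age, and their part in the results was not tested. The share of mitochondrial UMIs had a median between 1.79% and 2.41% in Myeloid and dendritic cells of every mouse.

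The genes whose levels followed the summed level of the 10 genes most closely over 12 sums per mouse and cluster of Myeloid and dendritic cells included Abca9, Stk10, Mrpl33 and Gpx1 (Pearson r = 0.95 each), Ptpn7 (0.94), Ltb4r1, Cebpd and Hpgd (0.93 each) and Mia2 (0.92). They are among the first 10 in a ranking of 5650 genes, and the sums share libraries, so the values are a description. Abca9, a lipid transporter family member, was at 76.7, 92.6, 11 and 20.8 CPM in the Myeloid cells and at 73.9, 38.8, 7.93 and 21.2 CPM in the Cd209a cluster of mice 4 to 7, and at 0 CPM in the migratory sums.

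In vessel cells the genes were rare, with a summed level of at most 5.11 CPM in endothelial and 10.8 CPM in mural cells. Folr2 was found in the tumor cells that resemble oligodendrocyte-lineage cells (OL-like), at 15.7, 24.1, 82.1 and 18.9 CPM in mice 4 to 7, from 138, 113, 310 and 473 UMIs. These levels exceeded those of Folr2 in the Myeloid cells of the same mouse in mice 5, 6 and 7. At 2000 UMIs it was found in 3.4%, 3.90%, 14.7% and 3.18% of OL-like cells, and Mrc1 in at most 1% of them. Folr2 was thus not confined to macrophages in these tumors.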

How the data were processed

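Dissociated tumors of 4 mice were profiled by droplet-based 3′ single-cell RNA sequencing. The deposited values are whole-number UMI counts per gene and cell, which the authors made with Cell Ranger 6.0.2 on the mm10 mouse genome (per the submitters' processing notes). No column of sample values was left out (0 columns). Groups were taken from the labelled ages, with the mouse as the replicate.

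Cells with at least 200 genes, under 25% mitochondrial UMIs and under 40000 UMIs were kept, integrated and clustered with Seurat 5.3.0 in R 4.3.3 (30 components, resolution 0.5). No doublet caller was run beyond the UMI maximum, so doublets may remain. Clusters were named from fixed marker lists. Counts were summed per mouse and class and tested with edgeR 4.0.16 (quasi-likelihood, TMM scaling, Benjamini-Hochberg adjustment), with DESeq2 1.42.0 as an alternative. The ± values are approximate standard errors, derived from the log2 change and the F statistic of the test and not estimated separately. Poisson and exact binomial 95% intervals cover counting error only, and a count of 0 was given the limit of 3 counts. The scripts were tested on simulated data. Python 3.11.15 was used for the other steps.

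The 10 genes and all lists were chosen with earlier results of these data known. Genes outside them were named from each fixed list (up to 4 past the threshold with the largest change, or the 3 with the highest mean CPM where none passed), by the 10 largest rises and 5 largest falls of the within-mouse comparison, and by the 10 highest correlations, unless stated otherwise. Hmox1, Stat6, Il4ra and P2ry12 in Myeloid cells and H2-Ab1, Flt3, Hpgd and Cd209d in dendritic cells were named after their values were seen. With 2 mice per age, an exact permutation test cannot pass the threshold, and p-values rest on the spread shared over genes. Alternatives were other cell filters, resolution, integration, scaling, thinning and the removal of each mouse. Some marker genes were not analysed here, and some genes that the naming rule selects are not reported here.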

Additional observations from a re-analysis of the deposited data

Results flagged for a closer look

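Signals of the 10 genes appeared in cells outside the Myeloid and dendritic classes. Retnla had 48 UMIs (884 CPM) in mouse 4 and none in the other mice in a cluster left unassigned because it held both neutrophil markers and the tumor reporter. Of the 16 Retnla-positive cells there, with a median of 1059.5 UMIs, none held S100a8, luciferase or human MYCN, and 6 held Ccr2. What these cells are was not tested. In the OL-like tumor cells of mouse 6, Folr2 had 310 UMIs in 132 cells. Mgl2 had 19 UMIs (465 CPM) in 10 of the 40 cells of mouse 4 in the B cell cluster.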

How the results depend on the processing

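No summed level or share difference changed sign. Of 65 alternatives and 39 values with 1 mouse left out, 38 and 25 stayed within the spread or within 1.5 times the count. The balance of calls did turn in places. Dendritic cells had 40 genes higher and 31 lower as reported, but 10 and 12 with under 10% mitochondrial UMIs. The other border macrophage genes in Myeloid cells had 1 higher and 0 lower, but 1 and 4 without mouse 7 and 0 and 0 without mouse 4. The cause of the other shifts was not tested. For the age test in Myeloid cells (18 genes), the count was 11 with a maximum of 60000 UMIs, 9 without integration, 83 by DESeq2 and 331 without a filter on genes, and 3 to 357 with a mouse left out (3 without mouse 4, 105 without mouse 5, 263 without mouse 6 and 357 without mouse 7). Of the other border macrophage genes, 0 were lower, but 2 by DESeq2, 4 without a filter and 0 to 4 with a mouse left out. In dendritic cells (71 genes) the count was 26 with 60000 UMIs, 22 with under 10% mitochondrial UMIs, 309 without integration, 328 without a filter and 136 in the Cd209a cluster alone, a choice made after seeing the data, and 22 to 519 with a mouse left out (175, 22, 72 and 519 without mice 4, 5, 6 and 7). Of the other border macrophage genes in dendritic cells 0 were lower, 1 without integration, 2 without a filter and 0 to 2 with a mouse left out. The 10 genes higher in positive Myeloid cells became 4 with 60000 UMIs, 2 with under 10% mitochondrial UMIs, 3 at resolution 1.0, 3 by DESeq2, 18 with at least 3 of the genes required, and 0 to 7 with a mouse left out (0 without mouse 4). The log2 ratio of the summed level in Myeloid cells (-4.08) was -3.14 without integration and between -4.89 and -3.57 with a mouse left out. In dendritic cells (-3.58) it was -3.95 with 60000 UMIs, -3.92 with under 10% mitochondrial UMIs and -3.94 without integration, and between -3.86 and -3.34 with a mouse left out. Without the cell with the most UMIs of the genes in each mouse, also chosen after seeing the data, the ratios were -3.85 and -3.41. The number of the genes lower in both P70 mice was 8 to 10 in Myeloid and 6 to 7 in dendritic cells with a mouse left out. The share difference of -27.3 points was -21.1 with 60000 UMIs, -23.5 without integration, -24.8 at 1000 UMIs, -36.0 without thinning and -18.9 for at least 3 genes, and between -29.1 and -25.5 with a mouse left out. A lone mouse of an age was assumed to vary like the others. No paired analysis was possible because the mice of the 2 ages are different animals, and the mouse was a block only in the within-mouse comparison.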

Other observations

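The 10 genes with the largest rise in Myeloid cells that held the set were also looked up between the ages, a choice made after their values were seen. In Myeloid cells all 10 had a negative log2 change at P70, as 47.6% of all genes tested did, and none passed the test (edgeR), with Dok2 at -2.85 ± 0.52 and Olfm1 at -2.24 ± 0.46. In dendritic cells 9 were tested, all 9 changes were negative (50.8% of all genes tested) and 5 passed (0.553% of all genes were called lower), namely Dok2, Olfm1 (-1.74 ± 0.29), Fcrls, Pid1 (-1.54 ± 0.30) and Ccr2. The rise was measured partly in the same P43 mice, so the comparisons are not independent. The set itself was chosen for lower levels at P70 in these mice, and the looked-up genes were picked from cells that held it. The age contrast thus entered their selection, and nothing is read from these counts against the shares of all genes. Fgfr1, one of the lower genes in Myeloid cells, was also lower in dendritic cells, at 115 and 85.7 CPM at P43 and 21.2 and 30.2 CPM at P70 (adjusted p = 0.0291, edgeR).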
